A study of Mus musculus with 10 samples.

Results

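Müller glia are the radial glial cells of the retina, whose processes run from the inner surface to the photoreceptor inner segments. They clear glutamate and turn it into glutamine, carry potassium, water and carbon dioxide away from neurons, supply lipids, and respond to injury with gliosis, in which intermediate filaments such as Gfap and Vim increase. The 33 marker genes described here were taken by symbol from a list of such markers, and all 33 were found among the 19999 genes of the deposited count table. Each of them passed the filter on low counts, with between 131 and 49843 counts per library. Many of them are not restricted to Müller glia: Apoe is also made by microglia, Cav1, Id1 and Id3 by endothelium, Aqp4 by astrocytes, and Sox2 and the Nfi genes by some amacrine or bipolar neurons.

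Total RNA of retina from BALB/c mice was sequenced as 5 libraries labelled LD-vehicle, for establishing light damage, and 5 labelled CTRL-vehicle, the controls. The labels used here give neither the vehicle nor the light dose, the time after exposure, or the age and sex of the mice, and a single batch entry covers the 10 libraries. The design text names an agent, A74, whose libraries were not analysed here. Whether each library is a different mouse is not stated, so the p-values rest on spread among libraries that may be technical. Means are given ± SD over the 5 libraries of a group. Log2 differences are log2 fold changes, light damage over control, ± SE, with p-values of edgeR adjusted by Benjamini-Hochberg over all genes tested.

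Library totals lay between 17900227 and 20337329 counts in light damage and between 14652535 and 20699236 in control. Light damage replicates 1 and 2 stood apart: their 9 lens markers summed to 7519.6 and 4015 counts scaled to library size (CPM), against 21.4 to 118 CPM in light damage replicates 3 to 5 and 3.28 to 31.4 CPM in control. They also held 17174 and 20414 counts of Xist, against 1 to 9 counts in every other library. Xist is made in female cells, so by this RNA replicates 1 and 2 were female and no control was. Sex, lens RNA and light damage are therefore mixed in them, and the part of sex was not tested. Control replicate 3 had the highest value of all 10 libraries in 6 of 10 genes of gliosis. For each called marker the value without light damage replicates 1 and 2 is given beside the result.

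Of the 33 Müller glia markers, 9 were higher in light damage and none was lower, with an adjusted p under 0.05 in edgeR's quasi-likelihood test over all 16852 genes tested. That is 27.3% of the markers higher, while 5.32% of all tested genes were higher and 7.85% lower. At an unadjusted p under 0.05, 15 markers were higher and 0 lower, while 5110 of the 16852 tested genes passed it in either direction. DESeq2 called 13 markers higher and 0 lower, with 6.75% of its genes called higher. The markers called were Sox8, Dbi, Lhx2, Gpr37, Clu, Slc1a3, Mlc1, Abca8a and Id3. Their log2 differences, light damage over control, were modest and lay between 0.26 for Abca8a and 0.66 for Clu. Over all 33 markers 31 had a positive log2 difference, with a median of 0.26, while 50.3% of all tested genes were positive, with a median of 0.00. Of other cell lists, 5 of 10 bipolar and 3 of 10 amacrine markers were also higher, while the median of 10 rod markers was -0.13. In these bulk samples a larger share of Müller cells, more RNA per Müller cell and RNA of other cells cannot be told apart. Nor can a shift between rods and the remaining cells.

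The markers were uneven among the light damage libraries. The median over the markers of log2 CPM, centred on each gene's mean over the 10 libraries, was 0.16, 0.21, 0.29, -0.01 and -0.05 in light damage replicates 1 to 5. It was -0.14, -0.05, -0.20, -0.21 and -0.08 in control replicates 1 to 5. Light damage replicates 1, 2 and 3 exceeded every control in 23, 22 and 24 of the 33 markers. Light damage replicates 4 and 5 did so in 10 and 8, and lay within the control range in 22 and 24. These counts per library were not made over all genes, so whether they are particular to the markers was not tested. Without light damage replicates 1 and 2, 3 markers were called, Sox8, Lhx2 and Gpr37, with 0.782% of genes called higher, and the median of the markers was 0.19 with 30 of 33 positive. Without control replicate 3 as well, Sox8, Dbi and Vim were called, with 0.552% of genes called higher, and 26 of 33 were positive.

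**Figure D1:**
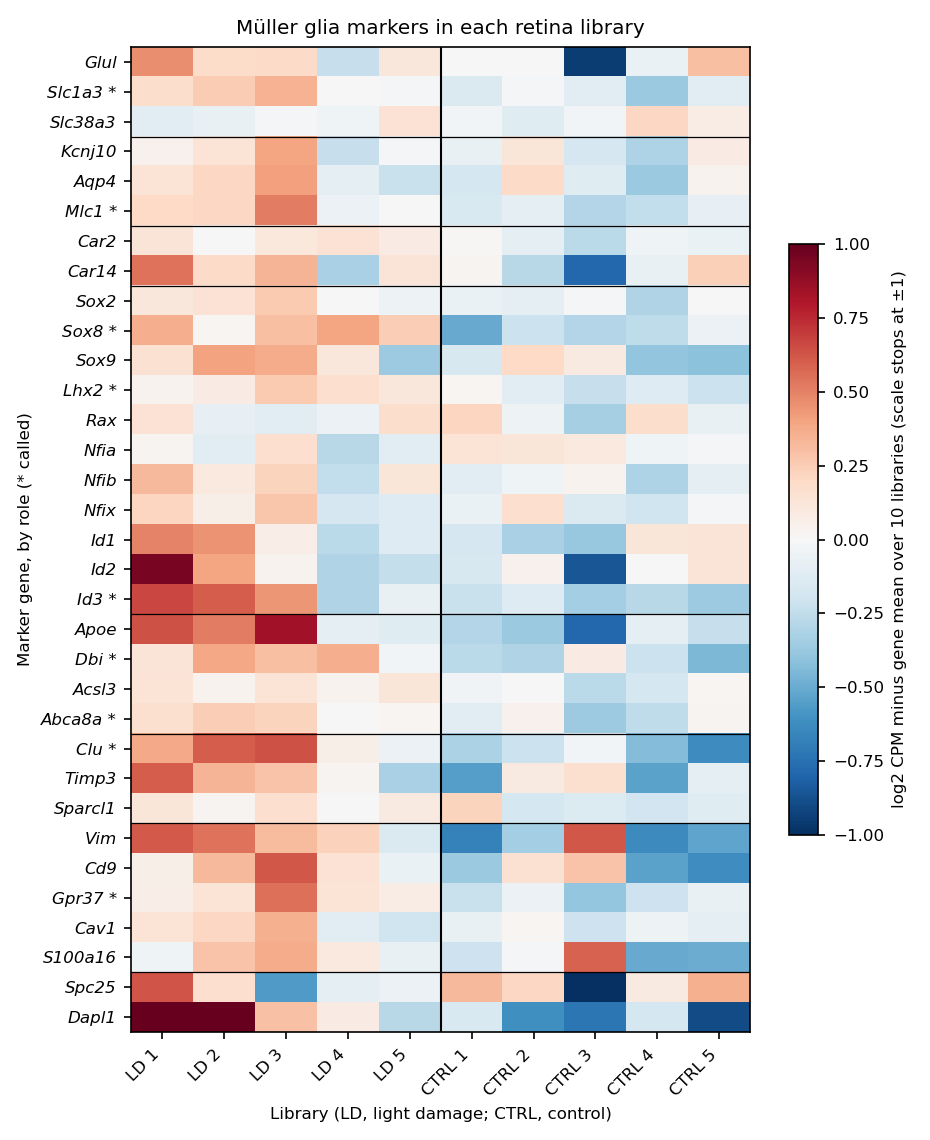
Level of the 33 Müller glia markers (rows, grouped by role) in the 5 light damage libraries (LD, left) and the 5 control libraries (CTRL, right), as log2 CPM minus the gene's mean over the 10 libraries. Of the 33 markers, 28 had their highest value in a light damage library and 32 their lowest in a control library, 14 of these in control replicate 3. The same counts were not made over all genes.

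The stretch before the RefSeq transcription start is shown for 3 of the markers called higher, since they hold letters matching motifs of SOX, NFI or LHX factors, families that include Müller glia markers. They were the called markers with a single RefSeq promoter entry and a motif in at least 200 bases outside coding-gene exons. Positions are those of build GRCm38.p6, all 3 genes are on the minus strand, and the sequences run 5′ to 3′ toward the gene. Capitals mark the motif TTGGCA of NFI factors, ACAAT of SOX factors, TAATTA of LHX factors, the STAT motif (TTC, any 3 bases, GAA) and TGGGAA of the Notch effector RBPJ, on either strand. The Sox8 stretch is chr17:25570687-25570936, that of Slc1a3 chr15:8710808-8711057 and that of Abca8a chr11:110095979-110096187.
Sox8: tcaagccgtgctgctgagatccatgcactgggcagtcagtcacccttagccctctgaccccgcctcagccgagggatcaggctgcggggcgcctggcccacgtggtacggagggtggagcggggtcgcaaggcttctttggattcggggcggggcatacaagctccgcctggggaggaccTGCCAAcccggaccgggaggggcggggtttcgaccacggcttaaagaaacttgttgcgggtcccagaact
Slc1a3: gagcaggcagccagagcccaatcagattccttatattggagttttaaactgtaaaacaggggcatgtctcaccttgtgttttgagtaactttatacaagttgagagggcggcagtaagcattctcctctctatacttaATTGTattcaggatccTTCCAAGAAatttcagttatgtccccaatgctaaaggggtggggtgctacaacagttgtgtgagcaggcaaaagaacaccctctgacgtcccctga
Abca8a: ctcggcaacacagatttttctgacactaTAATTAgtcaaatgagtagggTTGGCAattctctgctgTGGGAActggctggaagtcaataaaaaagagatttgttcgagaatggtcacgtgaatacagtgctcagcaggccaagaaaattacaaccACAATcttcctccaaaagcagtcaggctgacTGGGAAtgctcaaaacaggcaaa
Sox8 holds an NFI site on the opposite strand, and Slc1a3 a SOX core on the opposite strand and the STAT motif. Abca8a holds 5 matches, LHX, NFI, RBPJ, SOX and again RBPJ, none overlapping another. Among the 24 markers with a RefSeq promoter, in windows of 300 bases, the SOX core ACAAT was present in 20.8%, against 31.6% of all 27018 promoters. The NFI site was in 12.5% against 14.4%, RBPJ in 29.2% against 25.5%, LHX in 12.5% against 5.3%, STAT in 4.2% against 8.5%, and a longer SOX core, ACAAAG, in 12.5% against 18.7%. The marker promoters had a median GC content of 60.5%, against 52.7% for all promoters.

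Of 11 transcription factors and Id inhibitors, 3 were higher, Sox8, Lhx2 and Id3. Sox8, a SoxE factor, had 32.1, 25.3, 30.8, 32.8 and 29.7 CPM in light damage replicates 1 to 5, against 17.7, 21.5, 20.3, 21.0 and 24.1 CPM in control replicates 1 to 5. Every light damage library was above every control library. That held for 5 of the 33 markers and 4.31% of all tested genes, and the opposite order for 0 markers and 5.48% of genes. Sox8 had a mean of 30.1 ± 2.98 CPM in the damaged group and 20.9 ± 2.30 CPM in the controls, a log2 difference of 0.53 ± 0.09 (edgeR adjusted p = 0.00247). It was 0.58 without light damage replicates 1 and 2 (edgeR adjusted p = 0.0177). Lhx2, a LIM homeobox factor required for the retinal glial fate, had 52.4, 54.1, 61.3, 57.3 and 55.3 CPM in light damage, against 51.8, 47.5, 43.5, 46.6 and 44.0 CPM in control. The groups did not overlap, but the lowest light damage library was close to control replicate 1. Lhx2 rose by a log2 difference of 0.26 ± 0.06 (edgeR adjusted p = 0.0144). It was 0.31 without light damage replicates 1 and 2 (edgeR adjusted p = 0.0470), and 0.29 and not called without control replicate 3 as well (edgeR adjusted p = 0.0807).

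Id proteins block basic helix-loop-helix factors and are induced by bone morphogenetic protein signaling. Id3 had 32.6, 31.1, 27.8, 16.7 and 19.4 CPM in light damage, against 17.5, 18.7, 16.2, 16.9 and 15.97 CPM in control. Light damage replicates 1 to 3 were high, replicate 5 was slightly above the highest control and replicate 4 lay among the controls. Id3 rose by a log2 difference of 0.58 ± 0.17 (edgeR adjusted p = 0.0464), and the call held in 2 of 10 leave-one-library-out fits, those without light damage replicate 4 or 5. Without light damage replicates 1 and 2 the log2 difference was 0.32 (edgeR adjusted p = 0.202). Id1 and Id2 were not called. Id2 had a mean of 17.0 ± 6.60 CPM in the damaged group and 13.1 ± 3.08 CPM in the controls, and its log2 difference of 0.38 was -0.03 without light damage replicates 1 and 2. Id1, at 0.27, came to 0.01 in the same way. Light damage replicates 1 and 2 held the highest values of all 3 Id genes, and they also held the most lens RNA and Xist. The part of lens RNA and of sex in this was not tested.

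The remaining 6 transcription factors did not pass. Sox2, a factor of retinal progenitors kept by Müller glia, had a mean of 30.5 ± 2.64 CPM in the damaged group and 26.8 ± 2.17 CPM in the controls, a log2 difference of 0.19 ± 0.08 (edgeR adjusted p = 0.115). Sox9, the SoxE relative of Sox8, had a mean of 19.2 ± 3.73 CPM in the damaged group and 15.9 ± 3.07 CPM in the controls, a log2 difference of 0.28 ± 0.15. The nuclear factor I genes, which promote late-born retinal cells including Müller glia, had log2 differences of 0.21 for Nfib, 0.10 for Nfix and -0.12 for Nfia. Nfia was the marker with the lowest log2 difference, with 21.3 ± 2.52 CPM in the damaged group and 23.1 ± 1.34 CPM in the controls. Rax, the retinal homeobox factor, had a mean of 91.7 ± 8.88 CPM in the damaged group and 90.5 ± 13.5 CPM in the controls, a log2 difference of 0.02 ± 0.10.

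Of the 3 genes of glutamate and glutamine handling, Slc1a3 alone was called. Slc1a3, the glial glutamate transporter GLAST, had 238, 251, 269, 211 and 208 CPM in light damage, against 191, 208, 195, 163 and 196 CPM in control. The lowest light damage library was level with control replicate 2. Slc1a3 rose by a log2 difference of 0.31 ± 0.08 (edgeR adjusted p = 0.0202), and lost the call without light damage replicate 2 or 3, at an adjusted p of up to 0.0635 by edgeR. It was 0.27 and not called without light damage replicates 1 and 2 together (edgeR adjusted p = 0.139). Glul, glutamine synthetase, had 2788, 2292, 2310.1, 1721 and 2189.7 CPM in light damage, against 2014, 2027, 1049, 1932 and 2487 CPM in control. Control replicate 3 was far below the other 9 libraries and the groups overlapped. Its log2 difference of 0.25 ± 0.21 (edgeR adjusted p = 0.465) was 0.09 without control replicate 3. Slc38a3, a glutamine transporter, had 678, 695, 721, 708 and 806 CPM in light damage, against 716, 673, 717, 842 and 771 CPM in control. The light damage values lay within the control range, with a log2 difference of -0.04 ± 0.07 (edgeR adjusted p = 0.713).

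Among the genes of potassium and water transport, Mlc1, a membrane protein of glial endfeet, had 113, 114, 141, 94.4 and 99.0 CPM in light damage, against 88.8, 92.3, 80.4, 83.1 and 93.2 CPM in control. The groups did not overlap, by a narrow margin between light damage replicate 4 and control replicate 5. Mlc1 rose by a log2 difference of 0.36 ± 0.09 (edgeR adjusted p = 0.0219), a call lost without light damage replicate 1, control replicate 3 or control replicate 4, at an adjusted p of up to 0.0547 by edgeR. Leaving out light damage replicates 1 and 2 together gave 0.35, not called (edgeR adjusted p = 0.115). Kcnj10, the main inward rectifier potassium channel of Müller glia, had a mean of 77.5 ± 12.3 CPM in the damaged group and 70.3 ± 8.59 CPM in the controls, a log2 difference of 0.14 ± 0.11. Aqp4, the water channel of glial endfeet, had a mean of 117 ± 20.2 CPM in the damaged group and 103 ± 15.3 CPM in the controls, a log2 difference of 0.18 ± 0.13. Neither passed the test. Of the carbonic anhydrases, which hydrate carbon dioxide, the cytosolic Car2 had 547, 502, 539.6, 553 and 530.2 CPM in light damage, against 504, 467, 415, 485 and 478 CPM in control. Light damage replicate 2 alone lay within the control range, and the log2 difference of 0.19 ± 0.06 missed the threshold (edgeR adjusted p = 0.0602, 0.0129 by DESeq2). The membrane-bound Car14 had 56.9 to 104 CPM in light damage and 41.2 to 83.9 CPM in control and was not called (log2 difference 0.34 ± 0.21).

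**Figure D2:**
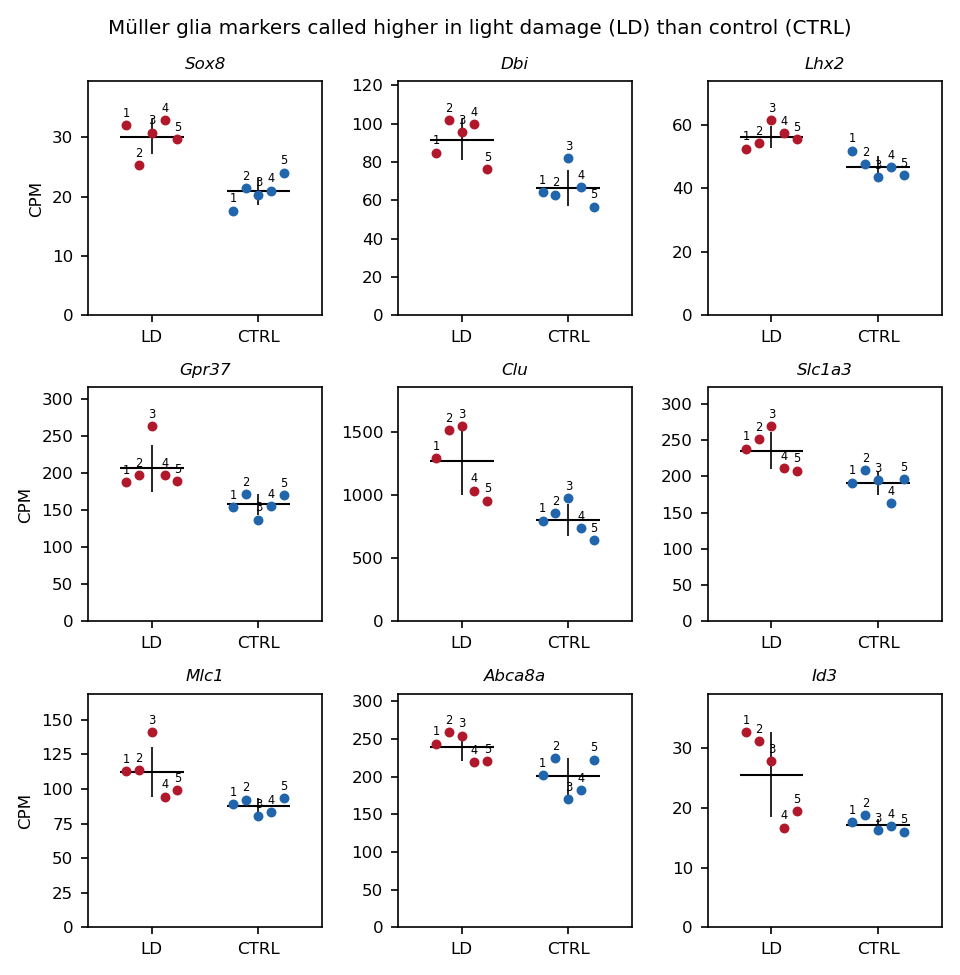
CPM of the 9 Müller glia markers called higher, in light damage (LD, left) and control (CTRL, right) libraries numbered by replicate, with the group mean and SD. In Sox8, Lhx2, Gpr37 and Mlc1 every light damage library lies above every control library.

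Lipid genes included a steady and an unsteady case. Dbi, the acyl-CoA binding protein, had 84.9, 102, 95.6, 99.7 and 76.2 CPM in light damage, against 64.3, 63.0, 82.0, 66.8 and 56.8 CPM in control. Control replicate 3 overlapped the lowest light damage library. Dbi rose by a log2 difference of 0.46 ± 0.10 (edgeR adjusted p = 0.0103) and was called in all 10 leave-one-library-out fits. Dbi was at 0.44 without light damage replicates 1 and 2 together (edgeR adjusted p = 0.0593). Apoe, the lipid carrier of glia, had 1204, 1101, 1384, 721 and 709 CPM in light damage, against 629, 598, 449, 726 and 659 CPM in control. Light damage replicates 1 to 3 were high, and replicates 4 and 5 lay within the control range. Its log2 difference of 0.74 was among the largest of the markers, but the spread was wide (SE 0.22) and the edgeR adjusted p was 0.0532, against 0.00759 from DESeq2. Its value was 0.62 without light damage replicates 1 and 2 (edgeR adjusted p = 0.226).

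Abca8a, a lipid transporter of the ABC family, had 244, 259, 255, 219 and 221 CPM in light damage, against 202, 224, 169.9, 182 and 222 CPM in control. Light damage replicates 4 and 5 fell just below the highest controls. Abca8a rose by a log2 difference of 0.26 ± 0.08 (edgeR adjusted p = 0.0432), and held the call in 4 of 10 leave-one-library-out fits. It was lost without light damage replicate 1, 2 or 3 or control replicate 1, 3 or 4, at an adjusted p of up to 0.111 by edgeR without light damage replicate 2. With light damage replicates 1 and 2 both left out it was 0.21 and not called (edgeR adjusted p = 0.235). Acsl3, a long-chain acyl-CoA synthetase, had a mean of 312 ± 11.5 CPM in the damaged group and 274 ± 23.3 CPM in the controls. All of its light damage libraries were above all controls, yet it was not called by edgeR (log2 difference 0.18 ± 0.06, adjusted p = 0.0655), while DESeq2 called it (adjusted p = 0.0278).

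Among secreted proteins Clu, an extracellular chaperone, had 1294, 1516, 1545, 1036 and 957 CPM in light damage, against 798, 857, 979, 737 and 642 CPM in control. Light damage replicate 5 lay just below control replicate 3. Clu rose by a log2 difference of 0.66 ± 0.15 (edgeR adjusted p = 0.0182), and was called in all 10 leave-one-library-out fits. It was 0.56 without light damage replicates 1 and 2 together (edgeR adjusted p = 0.101). Sparcl1, a matricellular protein, had 374, 351, 385, 342 and 366 CPM in light damage, against 401, 304, 312, 301 and 316 CPM in control. Control replicate 1 was the highest of all 10 libraries. With it the log2 difference was 0.15 ± 0.08 (edgeR adjusted p = 0.186), and without it Sparcl1 was called at 0.24. Timp3, an inhibitor of matrix metalloproteinases, had a mean of 44.1 ± 10.3 CPM in the damaged group and 34.0 ± 7.72 CPM in the controls and was not called. Its log2 difference was 0.38, and 0.18 without light damage replicates 1 and 2.

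Among membrane and cytoskeletal genes Gpr37, an orphan receptor, had 188, 197, 263, 197 and 189 CPM in light damage, against 154, 172, 137, 155 and 170.5 CPM in control. Light damage replicate 3 was high, and no library overlapped the other group. Gpr37 rose by a log2 difference of 0.39 ± 0.09 (edgeR adjusted p = 0.0144) and by 0.46 without light damage replicates 1 and 2 (edgeR adjusted p = 0.0428). Without control replicate 3 as well it was 0.41 and not called (edgeR adjusted p = 0.0697). Vim, the intermediate filament vimentin, had a mean of 294 ± 57.4 CPM in the damaged group and 200.2 ± 89.6 CPM in the controls. Control replicate 3 alone, at 358 CPM, lay above the range of 211 to 356 CPM of light damage, and the other controls lay between 146 and 184 CPM. Without control replicate 3, 3.74% of all genes were called higher. With it, the log2 difference of 0.55 was not called (edgeR adjusted p = 0.228), and without control replicate 3 it was 0.87 (edgeR adjusted p = 0.0086). S100a16, a calcium-binding protein, showed the same library as its highest, with 47.0 CPM against 22.01 to 31.0 CPM in the other controls and 29.6 to 40.4 CPM in light damage. Its log2 difference was 0.20 with control replicate 3 and 0.43 without it (edgeR adjusted p = 0.0368). Cd9, a tetraspanin, and Cav1, the coat protein of caveolae, had log2 differences of 0.41 and 0.17 and were not called.

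The markers Dapl1 and Spc25 varied widely. Dapl1 had 48.2, 40.3, 23.1, 20.0 and 15.5 CPM in light damage, against 17.0, 12.3, 11.4, 16.7 and 10.1 CPM in control. Its log2 difference of 1.12 was the largest of the markers but was not called (SE 0.35, edgeR adjusted p = 0.0686, 0.0107 by DESeq2). Its highest values were in light damage replicates 1 and 2, rich in lens RNA and Xist, without which it was 0.53. Spc25, a kinetochore subunit, had a mean of 103 ± 31.5 CPM in the damaged group and 103 ± 31.9 CPM in the controls, a log2 difference of 0.00 ± 0.30. Its extremes were 152 CPM in light damage replicate 1 and 47.7 CPM in control replicate 3.

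**Figure D3:**
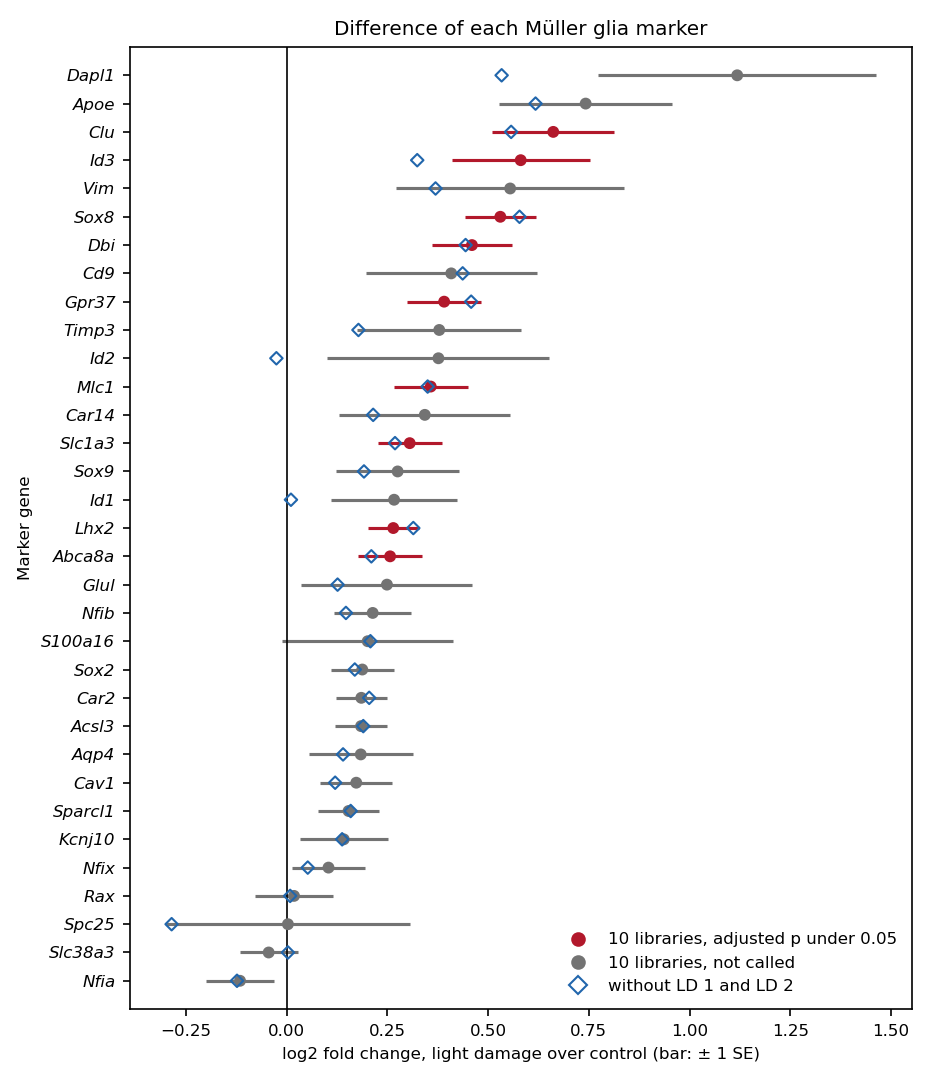
Log2 fold change of each Müller glia marker, light damage over control, with its SE, over all 10 libraries (circles, red where called) and without light damage replicates 1 and 2 (diamonds). The 9 called markers stay above 0 without these libraries, while Id2 moves to -0.03 and Spc25 to -0.29.

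**Figure D4:**
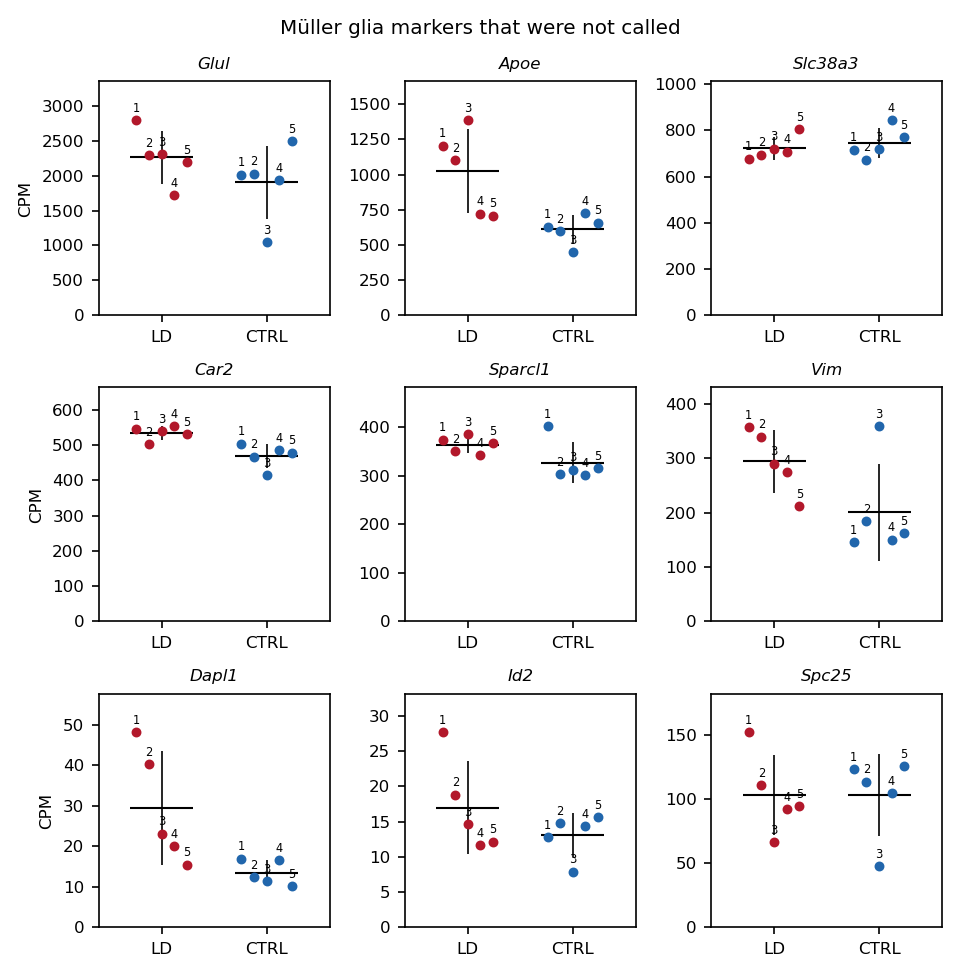
CPM of 9 Müller glia markers that were not called, in light damage (LD, left) and control (CTRL, right) libraries numbered by replicate, with the group mean and SD. Control replicate 3 is lowest of all 10 libraries in Glul, Apoe, Car2, Id2 and Spc25 and highest in Vim.

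Levels differed widely between markers. Per kilobase of annotated exon, the mean level over the 10 libraries was highest for Glul, at 626 CPM per kb, followed by Apoe at 383, Clu at 301, Car2 at 207, Slc38a3 at 139 and Sparcl1 at 118 CPM per kb. Nfib, Nfia and Sox9 were at the low end, with 1.62, 2.04 and 4.24 CPM per kb. Among these 6 most abundant markers per kilobase, Clu alone was called.

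A further 16 genes known from Müller glia were listed with earlier results of these data known, so they are no independent check. Of these, 9 were higher and 0 lower by edgeR, while 5.32% of all tested genes were higher. At an unadjusted p under 0.05 there were 9 and 0, while 5110 of all 16852 tested genes passed it in either direction. DESeq2 also gave 9 and 0, with 6.75% of its genes called higher. Those higher were Rlbp1, Dkk3, Hes1, Hes5, Prdx6, Ptn, Aldoc, Ndrg2 and Gnai2. Ptn, the growth factor pleiotrophin, had 93.5, 79.0, 121, 88.0 and 84.2 CPM in light damage, against 53.1, 56.9, 70.1, 61.7 and 62.8 CPM in control. The groups did not overlap, and the log2 difference was 0.61. Hes5, a Notch target, had a log2 difference of 0.71 and Aldoc, a glycolytic aldolase of glia, one of 0.26. The median of the 16 was 0.31, with 13 positive, and Crb1 (-0.14), Slc16a1 (-0.12) and Ednrb (-0.02) were negative. Without light damage replicates 1 and 2 the median was 0.26 with 2 called, while 0.782% of all genes were called higher.

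Genes of reactive gliosis did not separate the groups. Of 10 such genes 0 were called higher or lower by edgeR and also 0 by DESeq2, with a median log2 difference of 0.07 by edgeR. At an unadjusted p under 0.05 there were 0, while 5110 of all 16852 tested genes passed it in either direction. Gfap, the filament protein of reactive glia, had 102, 132, 117, 70.9 and 48.8 CPM in light damage, against 73.8, 106, 162, 58.3 and 50.4 CPM in control. Stat3, a transcription factor of the acute response, had 92.6, 131, 148, 106 and 108 CPM in light damage, against 81.8, 131, 239, 71.5 and 80.5 CPM in control. Socs3, its feedback inhibitor, had 26.8 CPM in control replicate 3, against 6.54 to 14.3 CPM in light damage and 3.77 to 7.91 CPM in the other controls. Control replicate 3 was the highest of all 10 libraries in 6 of the 10 genes and the highest control in 8. It was also the lowest of all libraries in 14 of the 33 markers, a count not made over all genes. Other libraries differed in the gliosis genes too, as medians of log2 CPM centred on each gene's mean show. These were -0.12, 0.64, 0.98, -0.18 and -0.40 in light damage replicates 1 to 5. In control replicates 1 to 5 they were -0.53, 0.03, 1.09, -0.73 and -0.79. Whether same-numbered libraries share a factor was not tested. Without control replicate 3 the median of the gliosis genes was 0.75, and Nes alone was called, a filament gene named after its values were seen. Over all 10 libraries the median was 0.34 by limma-voom, with 0 called. With the replicate number as a block it was 0.30, with Edn2 called higher and 8.49% of all genes higher.

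**Figure D5:**
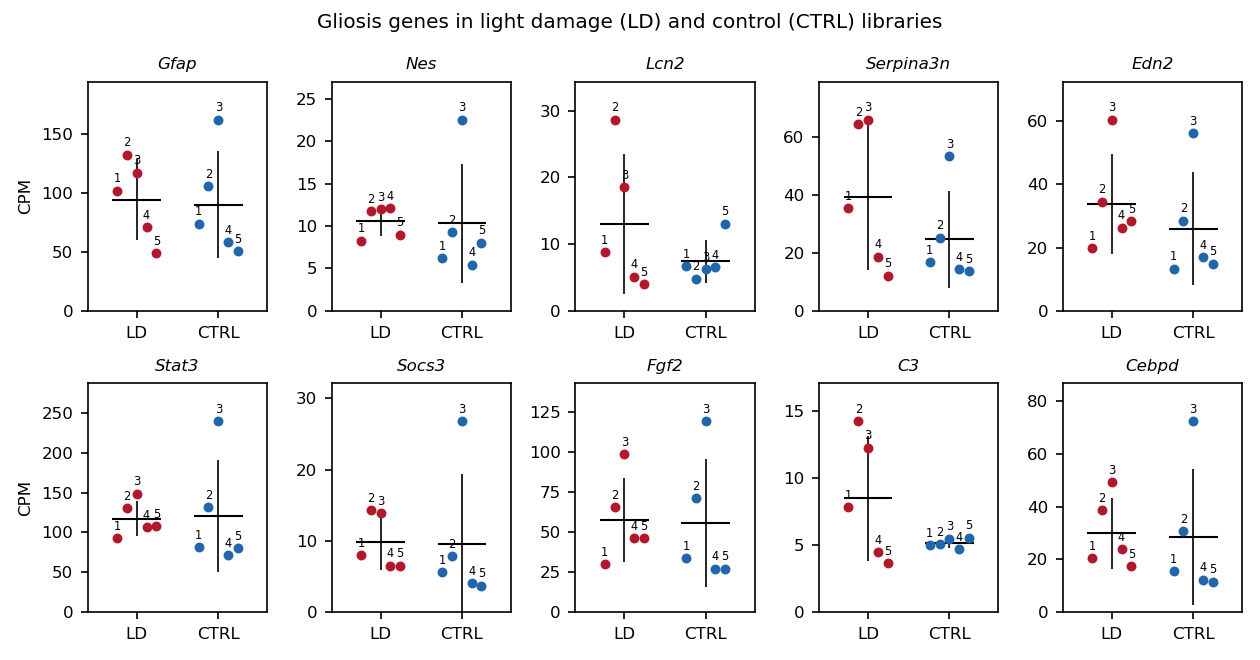
CPM of the 10 gliosis genes in light damage (LD, left) and control (CTRL, right) libraries numbered by replicate, with the group mean and SD. Control replicate 3 is the highest of all 10 libraries in Gfap, Nes, Stat3, Socs3, Fgf2 and Cebpd.

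Some markers of other retinal cells were higher beside the Müller glia markers. The 10 bipolar cell markers summed to 1487 to 1689.8 CPM in light damage and 1301 to 1573 CPM in control, with 5 higher by edgeR and a median log2 difference of 0.20. Of these, 3 were called without light damage replicates 1 and 2. The 10 amacrine markers summed to 1164 to 1305 CPM and 952 to 1175 CPM, with 3 higher and a median of 0.19, and 2 were called without light damage replicates 1 and 2. The 10 rod markers summed to 61723 to 86743 CPM in light damage and 66532 to 108093 CPM in control, with Sag alone called, higher, and a median of -0.13. Of the leave-one-library-out fits, Sag kept its call only in those without control replicate 1 or control replicate 4. It was also not called without light damage replicates 1 and 2 together. Without control replicate 3, Pde6a was called lower. The 10 markers of microglia and macrophages, which also make Apoe, summed to 63.7 to 143 CPM in light damage and 47.5 to 68.5 CPM in control. All 10 were positive, with a median log2 difference of 0.59, above the 0.26 of the Müller glia markers. At an unadjusted p under 0.05, 5 were higher, while 5110 of all 16852 tested genes passed it in either direction. By edgeR Csf1r alone was called, higher, and by DESeq2 Cx3cr1 and Csf1r. Without light damage replicates 1 and 2 edgeR called 0 and the median was 0.58. The sum was largest, at 143 CPM, in light damage replicate 3, where 13 of the 33 Müller glia markers had their highest value. That count of 13 was not made over all genes.

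The 10 markers of endothelium and pericytes summed to 320.4 to 479.7 CPM in light damage and 334 to 396 CPM in control, and the 7 astrocyte markers to 116 to 219 CPM and 115 to 233 CPM. In neither list was a gene called by edgeR, and the medians were 0.05 and 0.04. Among endothelial markers Cldn5 was higher at an unadjusted p under 0.05 and called by DESeq2, and edgeR called it without control replicate 3. Among astrocyte markers Pax2 was lower at an unadjusted p of 0.0175 (log2 difference -0.69), and Aldh1l1 was called higher by edgeR without control replicate 3. DESeq2 called Fgfr3 higher, a gene under the edgeR filter, with 7.83 and 5.27 CPM in light damage replicates 1 and 2 and at most 0.444 CPM in every other library. The 10 pigment epithelium markers summed to 102 to 236 CPM in light damage and 48.4 to 140.4 CPM in control, and the 10 of ciliary body and iris to 223 to 394 CPM and 236 to 312 CPM. None of these was called by edgeR. At an unadjusted p under 0.05 there were 1 and 5, while 5110 of all 16852 tested genes passed it in either direction. DESeq2 called 0 and 2 of these markers. Their median log2 differences were 0.58, with 10 of 10 pigment epithelium markers positive, and 0.53. These medians were 0.16 and 0.13 without light damage replicates 1 and 2. Of 12 lens markers 9 were in the table and 3 were higher, with 9 by DESeq2. No listed marker in the table was at 0 in all libraries. The part of these cells in the Müller glia result was not tested.

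The labels do not say whether counting used strand. Exons of 5 markers share more than 10% of their bases with a gene on the opposite strand in the GENCODE M21 annotation. These are Rax with 27.4%, Timp3 with 21.3%, Car14 with 17.5%, Cd9 with 10.7% and Sox8 with 10.6%, so their counts may include reads of the partner gene.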

How the data were processed

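Total RNA of 10 mouse retina libraries, 5 light damage and 5 control, was grouped by the sample titles. Per gene and library the deposited values are counts, all whole numbers. Bowtie2, RSEM 1.3.1, DESeq2 1.4.5 and build GRCm39 appear, with no role or order, in the submitters' processing notes. Whether RSEM estimates were rounded, and the annotation and strand setting, are not given in the sources used here. Reads of near-identical genes may therefore be split. Symbols came from a table of mouse gene identifiers and names (19892 identifiers matched), and GENCODE M21 models on GRCm38 gave exon lengths and overlaps. Promoters are RefSeq's.

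The fit used edgeR 4.0.16 under R 4.3.3: filterByExpr (16852 genes kept), TMM scaling, and the quasi-likelihood test with robust dispersion and group as the single term. Benjamini-Hochberg adjustment ran over all genes tested, and calls required an adjusted p below 0.05. SEs derive from the F statistic. CPM use TMM library sizes (prior count 2 on the log2 scale). Alternatives were DESeq2 1.42.0, limma 3.58.1 (voom), other scalings and filters, the replicate number as a block, and left-out libraries. Leaving out control replicate 3 together with light damage replicates 1 and 2 was chosen after seeing the data. The members and lists were chosen with earlier results of these data known. Values per library are given for the called markers and the 6 with the highest mean CPM, and Vim, S100a16, Dapl1, Acsl3 and non-member genes were added after their values were seen. The fit was tested on simulated counts of 16852 genes, 200 of them changed. It recovered 16% of 1.2-fold, 56% of 1.5-fold, 82% of 2-fold and 96% of 4-fold changes, with 8 false calls. A marker that was not called is therefore not shown to be unchanged. The simulated counts were drawn gene by gene, without the sex and lens differences of these libraries. Far fewer genes were changed in them than the 13.2% called here, so both rates may differ in the real data. Chi-square statistics per degree of freedom exceeded 6 for every pair of libraries, so none was treated as a repeat sequencing of another. The lowest were 6.08 for light damage replicates 4 and 5, 6.38 for control replicates 2 and 5, and 6.49 for light damage replicates 1 and 2. These values cannot show whether 2 libraries come from the same mouse. Figures used Python 3.11.15 and matplotlib 3.10.9.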

Additional observations from a re-analysis of the deposited data

Results flagged for a closer look

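Of 66 groups of 5 libraries, 4 held a library whose distance to its nearest neighbour was more than 0.71 of the group's range, and chance gives about 1 in 20. Gpr37, which was called, had 263 CPM in light damage replicate 3 and between 188 and 197 CPM in the other light damage libraries. Vim had 358 CPM in control replicate 3 and between 146 and 184 CPM in the other controls, and Spc25 had 47.7 CPM in the same library and between 104 and 125 CPM in the others. Sparcl1 had 401 CPM in control replicate 1 and between 301 and 316 CPM in the other controls.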

How the results depend on the processing

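Under DESeq2, limma-voom, library totals alone, relative log expression, other filters and a fit without robust dispersion, between 8 and 13 of the 33 markers were higher and none lower. In these fits between 4.62% and 6.81% of all genes were called higher. Library totals alone moved the median of all genes to 0.03 and the split of all calls to 6.81% higher and 5.41% lower, against 5.32% and 7.85% with TMM. Leaving out each library gave 6 to 11 called markers and 1127 to 2991 called genes of all kinds, against 2219 with all libraries. Sox8, Dbi, Lhx2, Gpr37 and Clu were called in each of these 10 fits. Without light damage replicates 1 and 2, 3 markers and 403 genes were called, and without control replicate 3 as well 3 markers and 286 genes.

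Signs turned only for markers that were not called. Leaving out a library put Spc25 between -0.18 and 0.13, Rax between -0.0541 and 0.0838 and Slc38a3 between -0.0871 and 0.0102, and a filter at 1 CPM in 5 libraries put Spc25 at -0.000495. Without light damage replicates 1 and 2 the values were -0.29 for Spc25, -0.0253 for Id2 and 0.00335 for Slc38a3. Without control replicate 3 as well they were -0.47 for Spc25, -0.17 for Id2, -0.0667 for Rax, -0.0538 for Id1 and -0.0305 for Glul. The cause was not tested.

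With the replicate number as a block 12 markers and 3285 genes were called, and 8.49% of all genes were higher, against 5.32% without the block. Gpr37 lost its call (adjusted p = 0.0700 by edgeR), and Cd9 (0.000564), Sox9 (0.0317), Car2 (0.0243) and Acsl3 (0.0272) gained one. Deviations of same-numbered libraries correlated between 0.05 and 0.32, the highest for replicate 3, and 4 of 5 lay under 0.1. Those of differently numbered libraries lay between -0.24 and 0.11. The main fit used no block, and these values do not settle whether the numbers pair the libraries. Each marker had at least 131 counts in every library, and whether more depth would change its call was not tested.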
